A study of Mus musculus with 8 samples.

Results

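The genes described here encode the subunits of the proteasome and of the COP9 signalosome, as measured in mouse hepatocytes with and without the VWA8 gene. They were taken by name: every gene whose symbol begins with Psma to Psme or with Cops, followed by a number. Of 22180 genes with a probe set assigned to 1 gene symbol, 53 matched, 44 of them proteasome genes by name and 9 COP9 signalosome genes. The study grew 4 wild-type cultures and 4 VWA8 knockout cultures of AML12, a hepatocyte line made from the liver of a mouse carrying a human TGF-alpha transgene, and hybridised total RNA from each to an Affymetrix mouse array. The knockout had been made by CRISPR/Cas9. Both genotypes were grown in DMEM/F12 with serum, antibiotics, insulin, transferrin, selenium and dexamethasone, and the design text calls the cultures differentiated. All cultures come from 1 cell line, and the sources used here do not say how many knockout clones gave the 4 cultures, so an effect of the genotype and a property of a clone cannot be told apart.

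The proteasome is the protease that degrades most proteins tagged with ubiquitin. Its core is a barrel of alpha and beta rings, with the cutting sites inside the beta rings, and a regulatory particle of a base and a lid recognises the tagged protein, removes the ubiquitin and threads the chain into the barrel. The COP9 signalosome is built from subunits largely related one to one to those of the lid, but it does not degrade proteins: it removes the small protein NEDD8 from cullins, the scaffolds of a large family of ubiquitin ligases that feed the proteasome. In the liver both are housekeeping complexes, and the proteasome can exchange its cutting subunits for immune forms after interferon.

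Values are the authors' log2 signals, so a difference of 1 is a doubling, and differences are given as knockout minus wild type with their standard error. A gene is said to have risen or fallen where limma's p-value was below 0.05 after Benjamini-Hochberg adjustment across the 22180 genes. Array medians lay between 4.27 and 4.33, and Vwa8 itself read 8.95 ± 0.041 (SD, n = 4) in wild type against 5.18 ± 0.116 (SD, n = 4) in knockout, a difference of -3.77 ± 0.070 (adjusted p = 4.84e-08; exact two-sided permutation p = 0.0286, the smallest that 4 against 4 allows). All 7 measured hepatocyte markers were above the median of all values, 4.29, and higher in the knockout, with a summed linear signal of 21330 to 21880 in wild type and 28160 to 29460 in knockout. Of 4 measured cholangiocyte markers 3 were above that median and 1, Krt7, fell (-0.52), with a summed signal of 1501 to 1587 and 1491 to 1610, while stellate, endothelial, leukocyte and muscle markers had 0 changed genes. Of these lists 1 of 6 stellate, 1 of 5 endothelial, 2 of 5 leukocyte and 1 of 3 muscle markers were above that median, while Ptprc, Cdh5 and Myod1 lay below it and Cd68 read 5.47 in wild type and 5.58 in knockout. All 9 measured cell division markers fell (median -1.55, Mki67 -2.66), and their part in the results below was not tested.

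In the knockout 5 of 9 COP9 genes rose and 0 fell, with a median difference of 0.29, whereas 4 of 44 proteasome genes rose, 3 fell and 37 did not pass, with a median of 0.01. Of all genes tested, 20.9% passed, 10.4% higher and 10.4% lower, with a median of -0.0027, and the difference in counts between the complexes was not tested. On chromosomes 1 and 2 the genes that rose were 5 of 5 COP9 and 4 of 6 proteasome genes, and on the other chromosomes 0 of 4 and 0 of 38. The members were mostly bright: 48 of 53 were among the brighter genes, those with a mean signal above that of the median gene, of which 18.6% were higher and 18.3% lower. No member changed by as much as Cops7b, whose linear signal was 1.35 times higher. The groups of 4 did not overlap, with the knockout higher, for 8 of 44 proteasome and 5 of 9 COP9 genes and, with the knockout lower, for 7 and 0 of them, against 12.9% and 13.2% of all genes (26.1% in either direction).

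**Figure D1:**
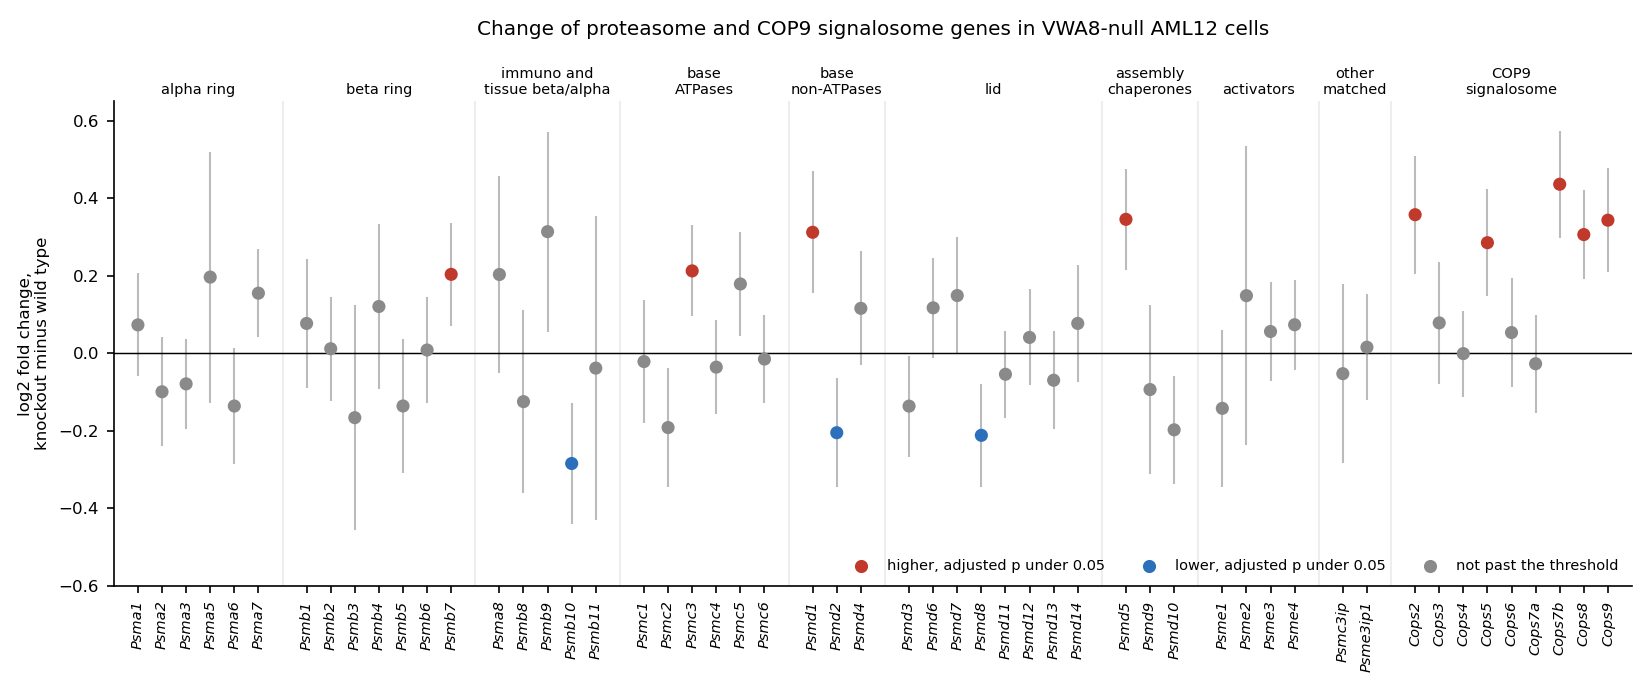
Difference in log2 signal, knockout minus wild type, of each member, ordered by its place in the complex, with the 95% confidence interval of the limma fit (n = 4 cultures a genotype); red points rose, blue points fell and grey points did not pass an adjusted p of 0.05. COP9 genes Cops2, Cops5, Cops7b, Cops8 and Cops9 lie between 0.29 and 0.44, and most proteasome genes lie close to 0.

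Among the COP9 genes, Cops5 encodes the metalloprotease that cuts NEDD8 from the cullin. Its 4 wild-type arrays read 8.51, 8.43, 8.53 and 8.54 and its knockout arrays 8.82, 8.69, 8.77 and 8.87, a rise of 0.29 ± 0.061 (adjusted p = 0.00942). Every knockout array was above every wild-type array. Cops6, its inactive partner with the same kind of domain, read 9.54, 9.52, 9.71 and 9.59 in wild type and 9.62, 9.71, 9.62 and 9.62 in knockout, a difference of 0.05 ± 0.062 (adjusted p = 0.635). The groups overlapped for Cops6.

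The other subunits form the scaffold around that pair. Cops2, which contacts the cullin, read 9.28, 9.32, 9.40 and 9.35 in wild type and 9.77, 9.67, 9.56 and 9.79 in knockout, a rise of 0.36 ± 0.067 (adjusted p = 0.00499). Cops8, the smallest of the classical subunits, read 8.23, 8.17, 8.20 and 8.18 in wild type and 8.52, 8.51, 8.50 and 8.47 in knockout, a rise of 0.31 ± 0.050 (adjusted p = 0.00238). Neither gene's groups overlapped. Cops9, a short acidic subunit and the most recently recognised one, read 5.99, 6.15, 6.05 and 6.11 in wild type and 6.41, 6.44, 6.47 and 6.35 in knockout, a rise of 0.34 ± 0.059 (adjusted p = 0.00308), again without overlap. Cops3 (0.08 ± 0.069, adjusted p = 0.512) and Cops4 (-0.00087 ± 0.049, adjusted p = 0.994) did not pass, and for Cops4 the 4 wild-type arrays lay between 7.92 and 7.93 and the knockout arrays between 7.89 and 7.95. Gps1, the first COP9 subunit, whose symbol falls outside the naming pattern, read 8.55, 8.39, 8.39 and 8.45 in wild type and 8.61, 8.58, 8.72 and 8.60 in knockout. Its groups did not overlap and its difference of 0.18 ± 0.063 missed the threshold (adjusted p = 0.0789; exact permutation p = 0.0286).

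Cops7a and Cops7b are paralogues that take the same position in the complex, so a given complex holds one or the other. Cops7b read 5.95, 5.80, 5.87 and 5.76 in wild type and 6.25, 6.31, 6.31 and 6.25 in knockout, a rise of 0.44 ± 0.061 (adjusted p = 0.000977). Cops7a read 6.24, 6.26, 6.24 and 6.34 in wild type and 6.25, 6.29, 6.25 and 6.17 in knockout, a difference of -0.03 ± 0.056 (adjusted p = 0.803). The groups stood apart for Cops7b and overlapped for Cops7a. Cops7b lies on chromosome 1, where other genes tended to be higher too (below), and Cops7a on chromosome 6. After the median change of brighter neighbouring genes was subtracted, Cops7b kept 0.26 and Cops7a 0.056. Within each array the log2 difference between both paralogues moved by -0.46 ± 0.066 (Cops7a minus Cops7b) without overlap, at the smallest exact permutation p possible, 0.0286, which became 0.0572 when adjusted over the 4 paralogue pairs compared.

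**Figure D2:**
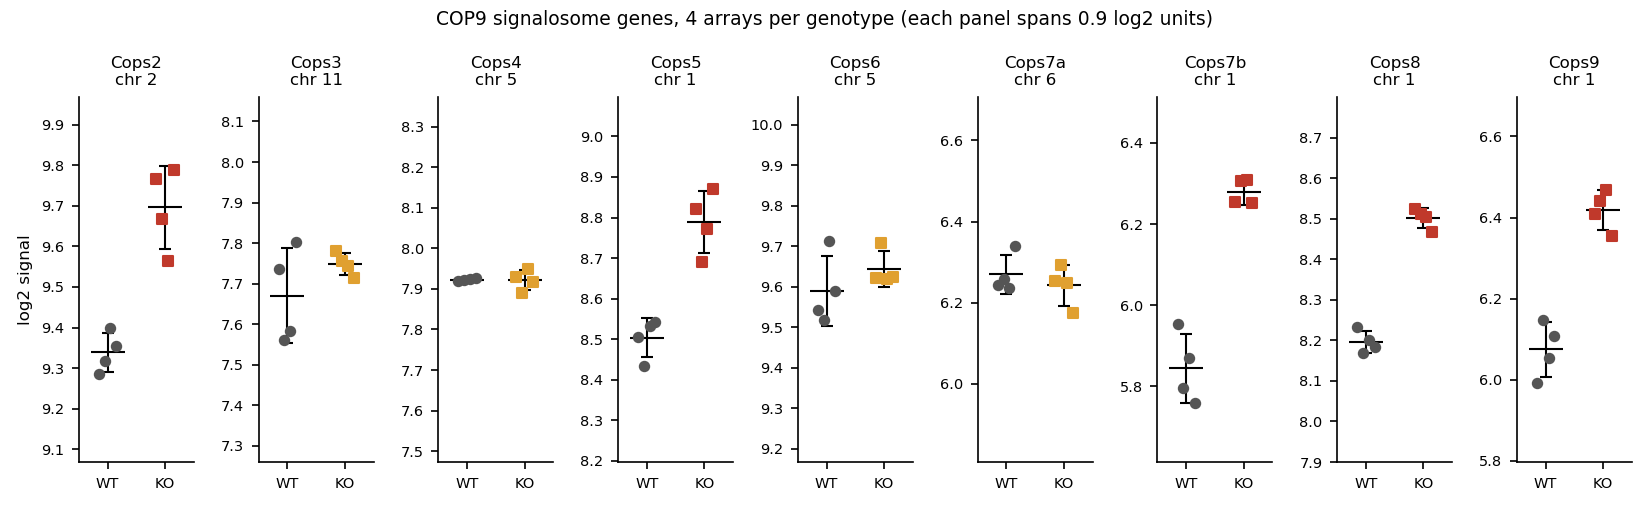
Log2 signal of the 9 COP9 signalosome genes on each array, wild type (WT, circles) and knockout (KO, squares; red where the gene rose), with the mean and SD of the 4 arrays; every panel has its own axis of equal span. The knockout arrays of Cops2, Cops5, Cops7b, Cops8 and Cops9 lie above all wild-type arrays, and those of Cops3, Cops4, Cops6 and Cops7a mix with them.

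Promoter sequences are printed for the COP9 paralogue pair and for Cops8 with its lid counterpart Psmd8, pairs in which one gene rose and the other did not. Each is the 250 bases before the RefSeq start site in GRCm38.p6, 5′ to 3′ on the gene's strand, with capitals for CCGGAAG, the core bound by ETS factors, or its reverse complement. They are Cops7a at chr6:124965513-124965762 (minus strand, the more upstream of its 2 start sites), Cops7b at chr1:86582671-86582920 (plus), Cops8 at chr1:90603175-90603424 (plus) and Psmd8 at chr7:29180674-29180923 (minus).
Cops7a: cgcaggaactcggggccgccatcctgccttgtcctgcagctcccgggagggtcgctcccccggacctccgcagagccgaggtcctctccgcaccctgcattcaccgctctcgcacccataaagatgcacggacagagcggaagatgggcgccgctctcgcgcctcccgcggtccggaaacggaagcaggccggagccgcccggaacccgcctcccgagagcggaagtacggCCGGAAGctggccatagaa
Cops7b: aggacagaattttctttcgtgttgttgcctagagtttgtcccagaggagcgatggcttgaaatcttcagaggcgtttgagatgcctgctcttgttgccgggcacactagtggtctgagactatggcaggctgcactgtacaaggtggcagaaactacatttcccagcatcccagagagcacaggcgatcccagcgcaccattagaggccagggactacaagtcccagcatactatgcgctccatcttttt
Cops8: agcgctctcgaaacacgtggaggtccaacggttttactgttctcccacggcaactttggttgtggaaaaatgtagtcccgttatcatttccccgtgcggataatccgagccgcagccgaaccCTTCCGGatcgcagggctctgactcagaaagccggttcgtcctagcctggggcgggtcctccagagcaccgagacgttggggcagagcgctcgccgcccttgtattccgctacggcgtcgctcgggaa
Psmd8: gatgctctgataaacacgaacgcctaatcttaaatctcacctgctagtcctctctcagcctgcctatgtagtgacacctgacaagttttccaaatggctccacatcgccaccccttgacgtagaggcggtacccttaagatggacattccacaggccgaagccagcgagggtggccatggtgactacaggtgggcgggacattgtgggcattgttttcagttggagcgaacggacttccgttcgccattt
The motif was present in Cops7a and Cops8 and absent from these windows of Cops7b and Psmd8. Windows of 29 bases around it are given for the other COP9 genes that hold it, Cops2 (chr2:125859074-125859102, minus strand), Cops3 (chr11:59839906-59839934, minus) and Cops9 (chr1:92641956-92641984, minus), and for Gps1 (chr11:120784262-120784290, plus). Cops9 holds a further site, with its window at chr1:92641976-92642004 (minus), which is not printed.
Cops2: tcctggagagaCCGGAAGacgaggagact
Cops3: aggggacctgaCTTCCGGcgactagcgga
Cops9: gaaggggctggCCGGAAGtgagcgcaacg
Gps1: gacgcgccgccCCGGAAGcgaacgtcgcc
RefSeq promoters, from 250 bases before to 50 after the start site, were matched for 45 of 53 members. On either strand CCGGAAG was found in 19 of the 45 (42.2%), 5 of 8 COP9 genes (62.5%) and 14 of 37 proteasome genes (37.8%), against 9.93% of all 27025 genes in the promoter table and 20.8% of the brighter genes. It was held by 4 of 9 matched members that passed the threshold (44.4%) and by 15 of 36 that did not (41.7%). Cops5, Psmb7 and Psmc3, which rose, had no promoter entry and are missing from this comparison. TGACNNNGC, the core of the antioxidant response element through which NFE2L1 acts on proteasome genes, was found in 6 of 37 proteasome promoters (16.2%), against 16.9% of the brighter genes. Both patterns can share bases, overlaps between them were not counted, and a match is a description of the sequence.

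In the core particle the alpha ring forms the gate. The 6 measured alpha genes had 0 called in either direction and ran from -0.14 (Psma6) to 0.20 (Psma5). Psma7 came nearest, reading 8.81, 8.75, 8.79 and 8.76 in wild type and 8.89, 8.95, 8.93 and 8.95 in knockout, a difference of 0.15 ± 0.050 without overlap (adjusted p = 0.0594). The signal of Psma5 was dim, 3.78 in wild type and 3.98 in knockout, and its other single-symbol probe set gave a difference of 0.48 that did not pass either (adjusted p = 0.105 over all probe sets). Psma5 did pass as higher with the mean of both probe sets (0.34, adjusted p = 0.00785) and without knockout replicate 2 (0.34, adjusted p = 0.038). Psma4 has no probe set of its own under the naming rule: the brighter of its 2 probe sets, which also lists AY074887, read 9.54 in wild type and 9.56 in knockout.

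The beta ring holds the cutting subunits Psmb5, Psmb6 and Psmb7, cleaving respectively after hydrophobic, acidic and basic residues. Of the 7 constitutive beta genes 1 rose, Psmb7, which read 8.85, 8.88, 8.79 and 8.92 in wild type and 9.06, 9.05, 9.14 and 8.999 in knockout, a rise of 0.20 ± 0.058 (adjusted p = 0.0370). Its groups did not overlap, but the call held in 2 of the 8 fits that each left out an array (without wild-type or knockout replicate 4). Psmb5 (-0.14 ± 0.076, adjusted p = 0.279) and Psmb6 (0.01 ± 0.061, adjusted p = 0.948) did not pass, and the other beta ring genes ran from -0.17 to 0.12. The 0.12 of Psmb4 became 0.21 and passed without wild-type replicate 1 (adjusted p = 0.0445).

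Interferon induces Psmb8, Psmb9 and Psmb10, which replace Psmb5, Psmb6 and Psmb7 in the immunoproteasome. Psmb10 read 8.10, 7.92, 8.01 and 7.85 in wild type and 7.68, 7.74, 7.61 and 7.71 in knockout. Every knockout array was below every wild-type array, and the gene fell by 0.28 ± 0.069 (adjusted p = 0.0176; 0.0502 without knockout replicate 3). Psmb8 (4.24 in wild type, difference -0.12 ± 0.104, adjusted p = 0.483) and Psmb9 (4.00, difference 0.31 ± 0.113, adjusted p = 0.0894) were dim and did not pass, and their groups overlapped. The within-array log2 difference Psmb7 minus Psmb10 moved by 0.49 ± 0.093 without overlap (exact permutation p = 0.0286, adjusted over 4 pairs 0.0572). The same differences for Psmb6 and Psmb9 (-0.31 ± 0.117, adjusted exact permutation p = 0.114) and for Psmb5 and Psmb8 (-0.01 ± 0.152, 0.971) had overlapping groups. Psmb7 lies on chromosome 2, where other genes tended to be higher too (below), and Psmb10 on chromosome 8. After the median change of brighter neighbouring genes was subtracted, Psmb7 kept 0.028 and Psmb10 -0.37. Psmb11, the thymus form, and Psma8, the testis form, stayed below the median of all values in both genotypes, with differences of -0.04 and 0.20.

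**Figure D3:**
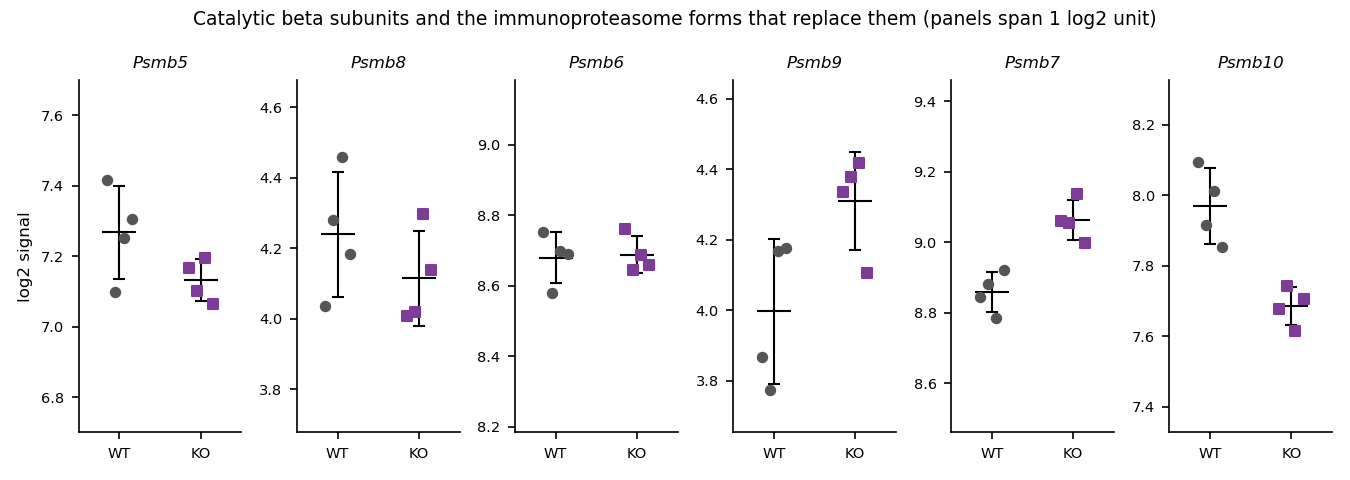
Log2 signal of the 3 constitutive cutting subunits and of the immune subunits that replace them, wild type (WT, circles) and knockout (KO, squares), with the mean and SD of the 4 arrays; every panel has its own axis of equal span. Psmb7 lies higher and Psmb10 lower in all 4 knockout arrays, while Psmb5, Psmb6, Psmb8 and Psmb9 overlap between genotypes.

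Of the 13 measured genes listed for interferon-controlled antigen presentation, 2 rose (15.4%) and 4 fell (30.8%), with a median of -0.14. Of the brighter genes 18.6% rose and 18.3% fell, and of all genes 10.4% each way. The smallest adjusted p-values belonged to Ifngr2, a subunit of the interferon-gamma receptor (-0.61 ± 0.078, adjusted p = 0.00058), Irf1, the transcription factor that drives immunoproteasome genes (-0.36 ± 0.060, adjusted p = 0.00278), and Stat2, which carries the type I interferon signal (-0.32 ± 0.055, adjusted p = 0.00294). The 2 that rose, named after their values were seen, were H2-T23, a class I histocompatibility gene (0.83 ± 0.203, adjusted p = 0.0188), and Tap2, a peptide transporter subunit (0.63 ± 0.109, adjusted p = 0.00323), both dim in wild type at 3.70 and 3.72.

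In the base of the regulatory particle, 6 ATPases pull the substrate open. Psmc3 was the 1 of 6 that rose: its wild-type arrays read 7.43, 7.47, 7.43 and 7.45 and its knockout arrays 7.60, 7.70, 7.66 and 7.68, a rise of 0.21 ± 0.052 without overlap (adjusted p = 0.0181; 0.0558 without knockout replicate 2). Psmc5 (0.18 ± 0.059, adjusted p = 0.0641; 0.0436 without wild-type replicate 1) and Psmc2 (-0.19 ± 0.067, adjusted p = 0.0815) lay on opposite sides of 0 and did not pass, and Psmc1, Psmc4 and Psmc6 ran from -0.04 to -0.01. Beside the ATPases stand Psmd1 and Psmd2, related scaffold proteins. Psmd1 read 8.53, 8.67, 8.65 and 8.69 in wild type and 8.86, 8.92, 8.92 and 9.09 in knockout, a rise of 0.31 ± 0.069 (adjusted p = 0.0115). Psmd2 read 8.86, 8.70, 8.79 and 8.68 in wild type and 8.59, 8.49, 8.57 and 8.55 in knockout, and fell by 0.20 ± 0.062 (adjusted p = 0.0453). The groups stood apart for both scaffold genes, in opposite directions. The call of Psmd2 held in 1 of the 8 fits that each left out an array (without wild-type replicate 4). Psmd4, a ubiquitin receptor, did not pass (0.12 ± 0.065, adjusted p = 0.275).

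In the lid 1 of 8 genes fell and 0 rose. Psmd8 read 10.59, 10.57, 10.59 and 10.68 in wild type and 10.43, 10.44, 10.40 and 10.30 in knockout, and fell by 0.21 ± 0.058 (adjusted p = 0.0316), without overlap, although the call held in 0 of the 8 fits that left out an array. Psmd14, the deubiquitinase of the lid, read 7.44, 7.55, 7.32 and 7.46 in wild type and 7.61, 7.52, 7.47 and 7.49 in knockout, with overlapping groups (0.08 ± 0.066, adjusted p = 0.502). The other lid genes ran from -0.14 (Psmd3) to 0.15 (Psmd7). For all 17 base and lid genes the 95% confidence interval of the difference lay within 0.5 of 0, and likewise for 12 of the 13 ring genes, Psma5 being the exception. The same held for 7 of the 9 COP9 genes, all but Cops2 and Cops7b. The limit of 0.5 exceeds every member's difference, and genes that passed, such as Psmd1, also lay within it. It therefore does not separate genes that changed from genes that did not.

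Of the chaperones that assemble the base, 1 of 3 rose. Psmd5 read 8.69, 8.66, 8.75 and 8.72 in wild type and 9.03, 8.97, 9.09 and 9.11 in knockout, a rise of 0.35 ± 0.057 without overlap (adjusted p = 0.00248), the largest among the proteasome genes that passed. Psmd10, the chaperone also called gankyrin, was lower in every knockout array, from 8.51 to 8.69 against 8.77 to 8.88, and just missed the threshold (-0.20 ± 0.061, adjusted p = 0.0514). Psmd9 did not pass (-0.09 ± 0.096, adjusted p = 0.582). The activators that cap the core in place of the regulatory particle, Psme1, Psme2, Psme3 and Psme4, had 0 of 4 called and ran from -0.14 to 0.15. Psmc3ip, a meiotic recombination factor, and Psme3ip1, a partner of Psme3, carry matching symbols but are not subunits, and they differed by -0.05 and 0.02.

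Of 17 measured partners, assembly factors and shuttles outside the naming pattern, 2 rose (11.8%) and 1 fell (5.88%), with a median of 0.06. Of the brighter genes 18.6% rose and 18.3% fell, and of all genes 10.4% each way. Psmg2, a chaperone of the alpha ring, rose by 0.35 ± 0.078 (adjusted p = 0.0126) and Psmf1, an inhibitor of the core, by 0.25 ± 0.061 (adjusted p = 0.0179). Akirin2, which brings proteasomes into the nucleus, fell by 0.20 ± 0.058 (adjusted p = 0.0407). The 11 measured genes listed for the control of proteasome transcription had 1 higher (9.09%) and 3 lower (27.3%), with a median of -0.04. Nfe2l1, the transcription factor that raises proteasome genes when proteolysis fails and the gene the list is named for, differed by -0.04 and did not pass. Its small partner Mafk fell by 0.53 ± 0.093 (adjusted p = 0.00354) and Bach1, a repressor at the same elements, by 0.44 ± 0.078 (adjusted p = 0.0035). Syvn1, a ubiquitin ligase of the endoplasmic reticulum that turns over NFE2L1, rose by 0.27 ± 0.061 (adjusted p = 0.0129).

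Lid and COP9 subunits largely correspond one to one, and the change of each lid gene was set against that of its counterpart within each array, over 9 pairs. In 4 pairs the groups did not overlap and the COP9 gene had the higher change. Single genes did not overlap in 26.1% of all genes, and the share over all pairs of genes was not computed. The difference lid minus COP9 was -0.52 ± 0.037 for Psmd8 and Cops8, -0.51 ± 0.048 for Psmd13 and Cops7b, -0.41 ± 0.056 for Psmd11 and Cops2 and -0.21 ± 0.072 for Psmd3 and Cops3. Each reached the smallest exact permutation p of 0.0286, or 0.0644 adjusted over the 9 pairs, so none passed 0.05 after adjustment. Cops8 and Cops7b lie on chromosome 1 and Cops2 on chromosome 2, where other genes tended to be higher too (below). Their lid partners lie on chromosomes 7 and 11. After the median change of brighter neighbouring genes was subtracted, Psmd8 and Cops8 kept -0.17 and 0.13, and Psmd13 and Cops7b 0.023 and 0.26. On that scale Psmd11 and Cops2 kept -0.13 and 0.20, and Psmd3 and Cops3 -0.16 and -0.060. The catalytic pair, Psmd14 and Cops5, differed by -0.21 ± 0.081 with overlap (exact permutation p = 0.0571, adjusted 0.103). Psmd6 and Gps1 (-0.06 ± 0.059), Psmd12 and Cops4 (0.04 ± 0.026), Psmd7 and Cops6 (0.10 ± 0.069) and Psmd13 and Cops7a (-0.04 ± 0.061) overlapped, with adjusted exact permutation p-values from 0.256 to 0.543.

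**Figure D4:**
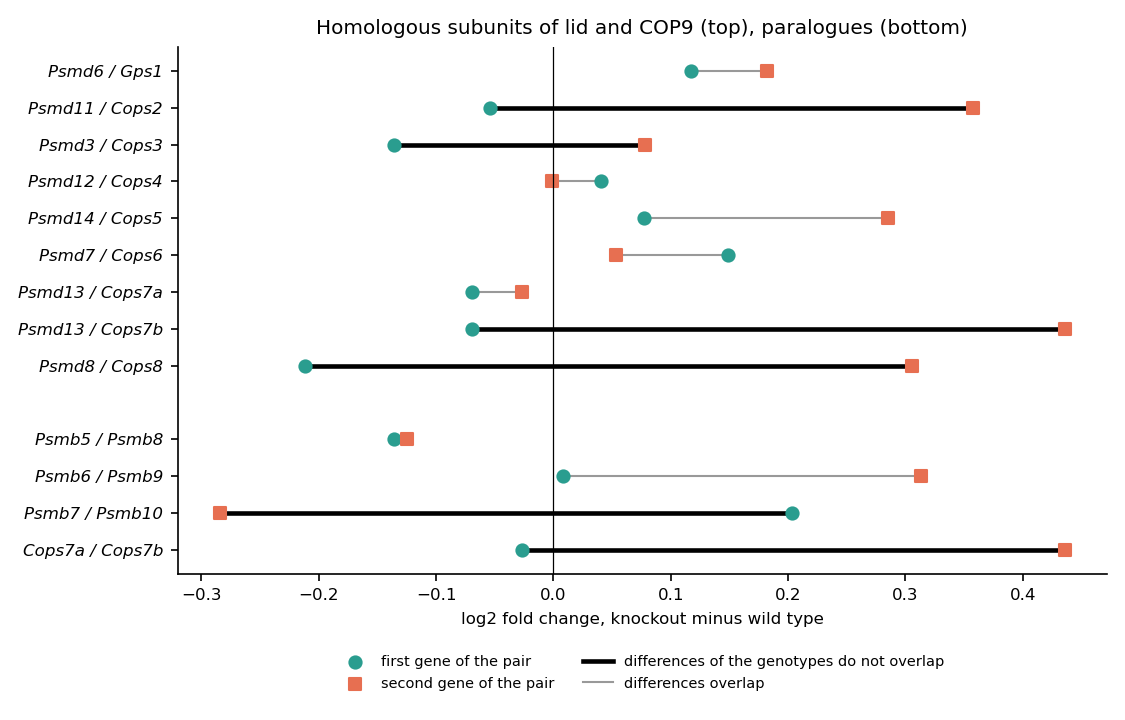
Log2 difference, knockout minus wild type, of both genes of each pair, lid (circles) and COP9 (squares) in the upper block and paralogues in the lower, with n = 4 a genotype and no error drawn; thick lines mark pairs whose within-array differences do not overlap between genotypes. The gap is widest for Psmd8 and Cops8, from -0.21 to 0.31, and for Psmd13 and Cops7b, from -0.07 to 0.44.

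The members that rose shared their chromosomes. All 9 lay on chromosomes 1 and 2: Cops5, Psmd1, Cops7b, Cops8 and Cops9 on chromosome 1, and Psmb7, Psmd5, Psmc3 and Cops2 on chromosome 2. These chromosomes hold 11 members, and the other 2, Psma7 and Psmd14 on chromosome 2, differed by 0.15 and 0.08 without passing. The 42 members elsewhere had 0 that rose and 3 that fell, Psmb10 on chromosome 8, Psmd8 on chromosome 7 and Psmd2 on chromosome 16. Between the COP9 genes the split was complete, 5 of 5 against 0 of 4. These 2 chromosomes were singled out after the values were seen. Psmd1 and Cops7b are near neighbours, with 11 measured genes between them, and 28 lie between Cops8 and Cops9.

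Other genes of both chromosomes were shifted too. Of their 3093 genes 19.8% were higher and 5.56% lower, against 8.91% and 11.2% of all other genes, those without a known position included. Among the brighter genes the median difference was 0.17 on chromosome 1 and 0.16 on chromosome 2, with 42.1% and 36.2% of genes higher. Chromosome 3 had a median of 0.21 and 46.4% higher, but its 3 members, Psma5, Psmb4 and Psmd4, did not pass (0.20, 0.12 and 0.12). After the median change of the 30 nearest genes on each side was subtracted, 4 COP9 genes still passed (Cops2, Cops7b, Cops8 and Cops9) with Psmd1 and Psmd5, and Cops5, Psmb7 and Psmc3 no longer did. With the 30 nearest brighter genes on each side, an alternative chosen after seeing the data, Cops7b alone of the 9 passed (0.26, adjusted p = 0.0176). On that scale Cops2 kept 0.20 (adjusted p = 0.0725), Psmd5 0.17 (adjusted p = 0.0719), Cops8 0.13 (adjusted p = 0.116) and Cops5 -0.055 (adjusted p = 0.582). Psmd1 kept 0.099 (adjusted p = 0.364), Cops9 0.085 (adjusted p = 0.360), Psmc3 0.058 (adjusted p = 0.487) and Psmb7 0.028 (adjusted p = 0.790). Cops4 (0.22, adjusted p = 0.012), Cops6 (0.21, adjusted p = 0.0468) and Psmd6 (0.22, adjusted p = 0.0232) then passed as higher, where their neighbours' median was below 0, and Psmb10 stayed lower (-0.37, adjusted p = 0.00504).

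**Figure D5:**
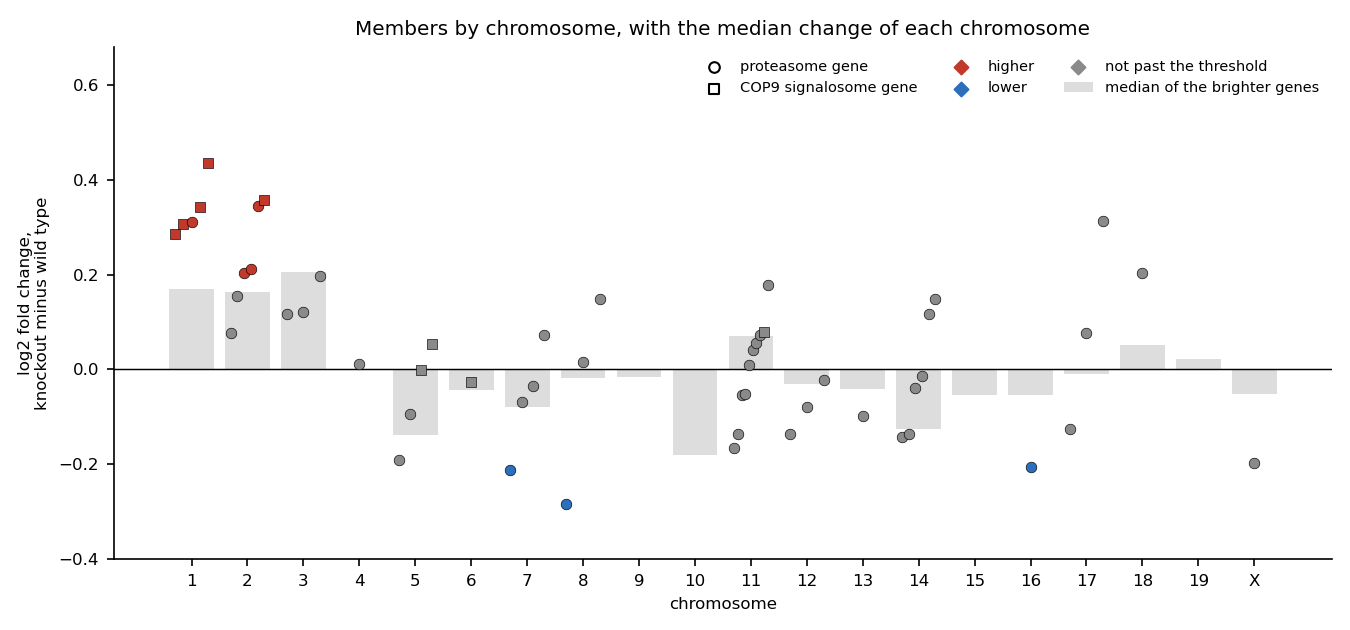
Difference in log2 signal, knockout minus wild type, of the 53 members by chromosome, with the median of the brighter genes of each chromosome as a grey bar; squares are COP9 genes, circles proteasome genes, red rose and blue fell. The 11 members on chromosomes 1 and 2 lie from 0.08 to 0.44, and the 42 others from -0.28 to 0.31.

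Most of the listed substrates and partners of the COP9 signalosome did not pass. Of 22 measured genes of neddylation and the cullins, 4 rose (18.2%) and 2 fell (9.09%), with a median of 0.06. Of the brighter genes 18.6% rose and 18.3% fell, and of all genes 10.4% each way. Cul7, a cullin scaffold, rose by 0.51 ± 0.072 (adjusted p = 0.00109), and Dcun1d4, which helps attach NEDD8, by 0.41 ± 0.101 (adjusted p = 0.0196). Cand1, which exchanges substrate receptors on cullins that COP9 has freed of NEDD8, fell by 0.28 ± 0.057 (adjusted p = 0.00746). Of 12 measured genes of eIF3, the translation factor whose subunits share domains with the lid and COP9, 0 rose and 3 fell (25%, median -0.07). The 3 were Eif3b, lower by 0.27 ± 0.049 (adjusted p = 0.00412), Eif3f by 0.28 ± 0.063 (adjusted p = 0.0123) and Eif3d by 0.27 ± 0.069 (adjusted p = 0.0239). Among 8 proteins with the JAMM or MPN domain of Cops5 and Psmd14, Eif3f was the 1 that passed (12.5%, median -0.01), against 20.9% of all genes.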

How the data were processed

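The values are log2 signals per probe set and array that the authors deposited for 8 arrays, read as log2 from their range of 0.44 to 13.55. The authors' background correction and normalization were not given in the sources used here. Of 41345 probe sets, 23521 had 1 symbol in the platform annotation, 1814 several and 16010 none; for each of 22180 genes the single-symbol probe set of highest mean signal was kept. Chromosomes and gene order came from a RefSeq gene table of assembly GRCm38.p6, matched by Entrez identifier for 21964 genes.

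Genotypes were compared with limma 3.58.1 (lmFit and eBayes, R 4.3.3), genotype as the only term, p-values two-sided and Benjamini-Hochberg adjusted over all genes at 0.05. The procedure was tested on simulated data with independent noise for each gene. That test required recovery only of changes larger than any member's and held no shifts shared by neighbouring genes, so it does not bear on these. Pairs of genes were compared with exact two-sided permutation tests over 70 arrangements of the within-array difference, adjusted within families of 9 and 4. P-values set the difference between genotypes against the spread between these cultures. The number of clones is not known, so they do not cover the spread between clones. Arrays limit precision by their number, 4 a genotype. The members, roles, pairs and lists were chosen with earlier results of these data known. All COP9 members, members past the threshold and genes of the pairs are named, and from each list up to 3 genes past the threshold with the smallest adjusted p. Replicate numbers did not pair the cultures (deviations of same-numbered arrays correlated at -0.00152 to 0.0589). Alternatives were a replicate block, other scalings, variance models, filters on dim genes, probe set rules, subtraction of neighbouring or chromosome medians and leaving out each array. Signals without a measure of background cannot separate a dim gene from no expression, and fewer cells and less RNA per cell cannot be told apart.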

Additional observations from a re-analysis of the deposited data

Results flagged for a closer look

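Single arrays stood apart from the other 3 of their genotype for 4 of the 110 groups of 4 values examined, where chance flags about 1 in 20. Cops6 read 9.71 in knockout replicate 2 and 9.62 in the others. Psmb4 read 8.20 in wild-type replicate 1, with the next at 7.87, and without that array its difference of 0.12 became 0.21 and passed (adjusted p = 0.0445). Psmd8 read 10.7 in wild-type replicate 4, with the next at 10.6. Psme3 read 8.34 in wild-type replicate 4, with the next at 8.25. A probe set outside the gene-level analysis, because it lists both Armc9 and Psmd1, was 0.30 higher in the knockout (adjusted p = 0.0391 over all probe sets).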

How the results depend on the processing

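Cops7b passed as higher in all 20 alternatives, between 0.26 and 0.47. Cops2, Cops5, Cops7b, Cops8, Cops9, Psmd1 and Psmd5 passed in each of the 8 fits that left out an array, Psmb10 and Psmc3 in 7 each (lost without knockout replicates 3 and 2). With the replicate block, where numbers are merely shared, 3717 genes passed and 2 proteasome genes were higher, 0 lower, and 5 COP9 genes higher. Proteasome genes higher numbered 7 with an intensity trend and robust variances and 2 with all probe sets in the fit. After subtracting the median of 30 neighbours on each side they numbered 2, Psmd1 and Psmd5. With brighter neighbours or chromosome medians the number was 1, in both cases Psmd6, which had not passed in the main fit. Psmd1, Psmd5, Psmb7 and Psmc3 passed in neither of these settings. Proteasome genes lower numbered 1 after median centring, 5 with the intensity trend, 5 and 6 without the dimmest 25% and 50% of genes, 1 in either neighbour subtraction, 1 with all probe sets, and 0 to 2 when an array was left out. COP9 genes higher numbered 3 with brighter neighbours (Cops7b, with Cops4 and Cops6, which had not passed in the main fit) and 1 with chromosome medians (Cops7b). The COP9 median was 0.16, 0.13 and 0.14 with 30 neighbours, brighter neighbours and chromosome medians. Cops4 became 0.22 and Cops5 -0.055 with brighter neighbours. The cause of these shifts was not tested, apart from the subtraction itself. The chromosome, brighter-neighbour and all-probe-set alternatives were chosen after seeing the data. For the dim members Psma5, Psma8, Psmb8, Psmb9 and Psmb11 the signal limits what can be read.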

Other observations

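Of 13 measured genes of ubiquitin and its activating and conjugating enzymes, 0 rose and 5 fell (median -0.13), against 10.4% lower among all genes and 18.3% among the brighter ones. The genes that fell included Ube2c and Ube2s, the conjugating enzymes of the anaphase-promoting complex (-1.16 ± 0.120, adjusted p = 0.000176, and -0.61 ± 0.067, adjusted p = 0.000236), and Ube2d1, a general conjugating enzyme (-0.68 ± 0.079, adjusted p = 0.000331). Of the 16 genes of the anaphase-promoting complex itself, a cell division ubiquitin ligase, 0 rose and 4 fell (median -0.06). Its activators Cdc20 (-1.01 ± 0.093, adjusted p = 9.17e-05) and Fzr1 (-0.41 ± 0.053, adjusted p = 0.000693) and its subunit Cdc16 (-0.23 ± 0.054, adjusted p = 0.0171) were among them. All 9 measured cell division markers fell in the same cultures, and their part in these values was not tested.

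Adaptors and substrate receptors of the cullins, whose ligases the COP9 signalosome acts on, had 4 of 15 higher and 0 lower (median 0.06). The share higher was 26.7%, against 10.4% of all genes and 18.6% of the brighter ones. Eloc, an adaptor of cullins that bind elongin, rose by 0.57 ± 0.112 (adjusted p = 0.00637), Spop, a receptor of Cul3, by 0.37 ± 0.068 (adjusted p = 0.00433), and Btrc, an F-box receptor, by 0.28 ± 0.070 (adjusted p = 0.0208). Eloc lies on chromosome 1, Spop on chromosome 11 and Btrc on chromosome 19.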
